A study of Homo sapiens with 3 samples.

Results

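The cell junction genes CDH3, CLDN3, CLDN4, CLDN7, F11R, JUP and DSP were chosen by name as the tight, adherens and desmosomal junction genes of a panel of 110 endogenous genes, and all 7 were on it. RNA was counted with the NanoString nCounter, which counts colour-coded barcode probes singly and without amplification. Total RNA came from MCF10A, a human line of mammary epithelial cells that is immortalised but not tumorigenic. The libraries were labelled basal, luminal and stem, with 1 library per cell subpopulation and no treatment stated. How the subpopulations were separated is not given in the sources used here, and the extraction kit named is one for fixed tissue. The title sets the study in work on the transcription factor Slug and changes of cell state, so each comparison asks how far junction genes differ between these states.

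Epithelial cells are joined by tight junctions, which seal the space between cells, by adherens junctions, which couple their actin, and by desmosomes, which couple their keratin filaments. Claudins are the membrane proteins that form tight junction strands, and F11R (junctional adhesion molecule A) is an immunoglobulin-like protein beside them. CDH3 is P-cadherin, the cadherin typical of basal mammary cells. JUP (plakoglobin) binds cadherin tails in both adherens junctions and desmosomes, and DSP (desmoplakin) ties the desmosome to keratins. Slug is a zinc finger repressor that binds E-box letters in DNA and is known to repress epithelial junction genes. Its gene, SNAI2, was not among the genes counted.

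The probes of the 3 claudin genes gave few counts or none above background, and their promoters are shown because Slug and related repressors bind E-boxes. Promoter windows of RefSeq (GRCh38.p14) were found for 5 of the 7 genes, CLDN3, CLDN4, CLDN7, JUP and DSP. Each sequence below is the 250 bases before a start site, 5′ to 3′ on the strand of the gene, and capitals mark every CANNTG, the general E-box.
CLDN3 (chr7:73770271-73770520, minus strand): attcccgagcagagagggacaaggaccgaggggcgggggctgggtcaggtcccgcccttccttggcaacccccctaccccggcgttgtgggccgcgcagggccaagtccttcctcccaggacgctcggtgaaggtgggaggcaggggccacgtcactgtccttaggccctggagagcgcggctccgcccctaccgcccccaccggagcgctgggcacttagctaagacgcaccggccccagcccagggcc
CLDN4 (chr7:73830746-73830995, plus strand): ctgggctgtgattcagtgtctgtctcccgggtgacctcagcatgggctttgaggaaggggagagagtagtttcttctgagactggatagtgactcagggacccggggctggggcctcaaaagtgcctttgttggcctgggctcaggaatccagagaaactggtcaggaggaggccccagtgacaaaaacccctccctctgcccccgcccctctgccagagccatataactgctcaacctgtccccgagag
CLDN7, upstream start (chr17:7263214-7263463, minus strand): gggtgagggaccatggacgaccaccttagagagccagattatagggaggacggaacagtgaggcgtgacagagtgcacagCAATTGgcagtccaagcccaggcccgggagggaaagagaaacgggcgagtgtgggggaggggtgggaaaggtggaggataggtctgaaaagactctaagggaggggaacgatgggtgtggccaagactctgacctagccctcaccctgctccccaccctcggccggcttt
CLDN7, downstream start (chr17:7262479-7262728, minus strand): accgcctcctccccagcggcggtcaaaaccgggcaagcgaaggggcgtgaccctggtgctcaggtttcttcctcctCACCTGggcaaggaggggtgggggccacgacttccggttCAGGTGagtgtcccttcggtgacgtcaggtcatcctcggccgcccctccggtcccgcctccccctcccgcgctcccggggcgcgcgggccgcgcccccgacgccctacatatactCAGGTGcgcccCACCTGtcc
CAGGTG and its reverse complement CACCTG, a subset of CANNTG, were also counted. At least 1 of them lay in 17.5% of 35116 RefSeq windows of this length, and any CANNTG in 61.8%. The windows of CLDN3 and CLDN4 held 0 of either kind. The window at the downstream start of CLDN7 held 4 copies of CAGGTG or CACCTG, and 0.464% of all windows held 3 or more. The window at its upstream start held 0 of these and 1 other CANNTG. JUP had 2 copies at 1 of its 2 start sites and 0 at the other, and DSP had 2. These matches describe letters only. CLDN3 and CLDN4 are neighbours on chromosome 7, with 0 genes listed wholly between them, while CLDN7 lies on chromosome 17.

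Counting depth differed widely. Endogenous counts summed to 9136 in luminal, 8891 in basal and 792367 in stem, and the 7 junction genes made up 4.81%, 4.34% and 5.83% of them. Background, the mean plus 2 SD of the 8 negative control probes, lay at 1.83, 1 and 18.9 counts. The lowest value in the table is 1, so a gene listed at 1 had 0 or 1 count. A normalised count is the raw count per 100 of the geometric mean of 5 housekeeping genes. That mean was 138 raw counts in luminal, 118 in basal and 12846 in stem. The bounds given are 95% exact intervals of counting error only. A single library per subpopulation gives no spread between replicates, so the subpopulations were not tested and no p-value is given. Counts of different junction gene probes were not set against each other as levels. The marker sums that follow add counts of different probes and serve only to compare libraries. Of the basal mammary markers, 4 of 7 were on the panel (KRT5, KRT14, KRT17 and CAV1), each above background in every library, with summed normalised counts of 1491 in luminal, 1596 in basal and 1262 in stem. Of the luminal markers, 6 of 8 were on the panel. Above background were 3 of them in the luminal library, 2 in basal and 6 in stem, and their summed normalised counts were 919.6, 915.7 and 658. KRT8 made up most of each sum (898, 909 and 648), whereas CD24 had 15.2 in luminal, 3.38 in basal and 5.75 in stem. The luminal markers KRT19, GATA3 and ESR1 were listed at 1 in the luminal library itself and in basal. In stem they had 0.249, 0.304 and 0.187 normalised counts, under the upper limits of 4.04 in luminal and 4.71 in basal. The number of markers above background is therefore not comparable between these depths. No fibroblast, endothelial or immune marker was on the panel.

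Among the tight junction genes, CLDN3 and CLDN4 were not above background in any library. CLDN3 (NM_001306.3) was listed at 1 in luminal, at 1 in basal and at 15 counts in stem. CLDN4 (NM_001305.3) had the same 3 values. The 15 counts in stem stood just over the highest negative control probe, at 14 counts, and under the background of 18.9. They set an upper limit of 0.193 normalised counts for each gene in stem. In luminal and basal the upper limits were 4.04 and 4.71, so a level many times that of stem would not have been detectable at those depths, and no ratio is given for either gene.

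CLDN7 (NM_001307.3), the third claudin, was above background in all 3 libraries, on few counts. It had 7 counts in luminal, 2 in basal and 318 in stem, or 5.07 (2.04 to 10.5), 1.69 (0.205 to 6.10) and 2.48 (2.21 to 2.76) normalised counts. In basal all negative control probes were listed at 1, so 2 counts were enough to exceed background. The counting interval of those 2 counts (0.242 to 7.22) included 1. In luminal the highest negative control probe had 2 counts. On the housekeeping scale luminal stood highest, then stem, then basal, but the intervals of all 3 overlapped. The basal over luminal log2 ratio was -1.59 (-4.89 to 0.81). That of stem over luminal was -1.04 (-2.09 to 0.29), and that of stem over basal 0.55 (-1.31 to 3.60). Stem over luminal turned to 0.62 with 6 positive controls and to 0.74 with 4, and basal over luminal to 0.06 with 4. Subtracting the mean of the negative controls moved basal over luminal to -2.36 and stem over basal to 1.51. The intervals included 0 in each case, so a difference of CLDN7 between libraries was not detectable at this depth.

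F11R (NM_016946.4) had 40 counts in luminal, 28 in basal and 5155 in stem. These were 29.0 (20.7 to 39.5), 23.7 (15.7 to 34.2) and 40.1 (39.0 to 41.2) normalised counts. Stem was highest and stood clear of basal, while the intervals of luminal and basal overlapped widely. F11R was 1.70-fold higher in stem than in basal, a log2 ratio of 0.76 (0.23 to 1.35). Over luminal it was 1.38-fold higher, at 0.47 (0.02 to 0.96), but that interval included 0 once the counting error of the scale was added (-0.02 to 0.96), when RPLP0 or SF3A1 was left out of the scale, and by the median of ratios.

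**Figure D1:**
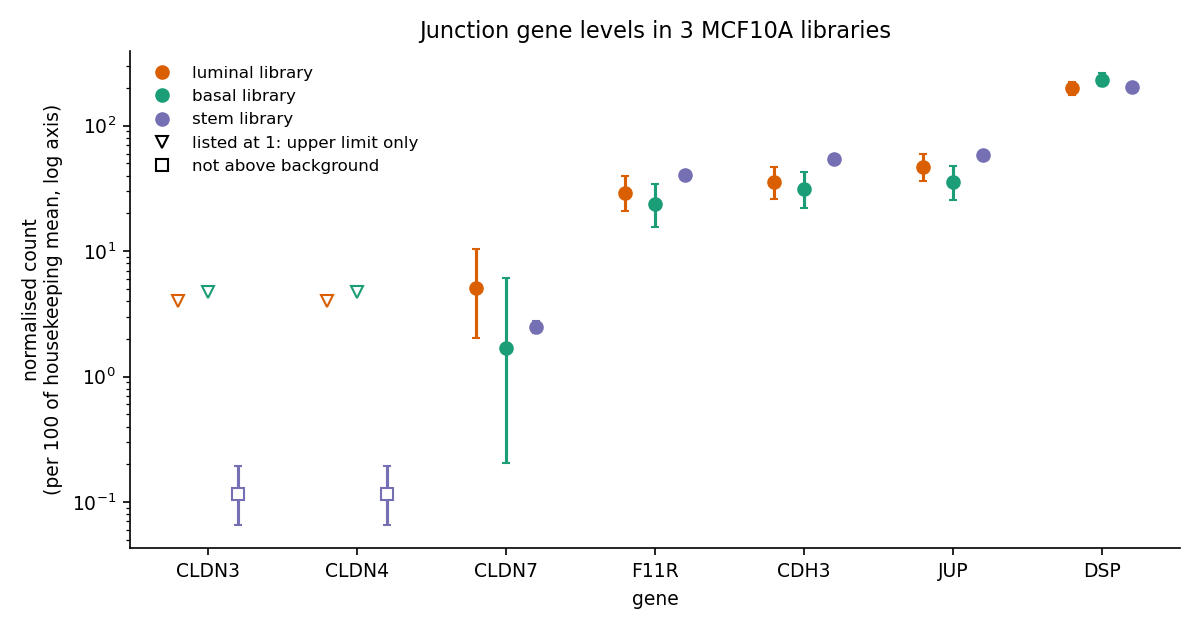
Normalised counts (raw count per 100 of the housekeeping mean, log axis) of the 7 junction genes in the luminal, basal and stem libraries. Bars are 95% exact counting intervals, open triangles are upper limits of genes listed at 1, and open squares are values not above background. F11R, CDH3 and JUP were highest in stem, at 40.1, 54.4 and 58.7, and DSP was highest in basal, at 232.

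At the adherens junction, CDH3 (NM_001793.4) had 49 counts in luminal, 37 in basal and 6991 in stem. These were 35.5 (26.3 to 46.9), 31.3 (22.0 to 43.1) and 54.4 (53.2 to 55.7) normalised counts. The stem interval overlapped neither of the others and the basal library had the lowest value. CDH3 was 1.74-fold higher in stem than in basal, a log2 ratio of 0.80 (0.34 to 1.31), and 1.53-fold higher than in luminal, at 0.62 (0.21 to 1.05). Between basal and luminal the log2 ratio was -0.18 (-0.84 to 0.46).

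JUP (NM_002230.2), shared by adherens junctions and desmosomes, had 65 counts in luminal, 42 in basal and 7543 in stem. Its normalised counts were 47.1 (36.4 to 60.0), 35.5 (25.6 to 48.0) and 58.7 (57.4 to 60.1). Stem was again highest and basal lowest, with luminal between them and its interval reaching into that of stem. JUP was 1.66-fold higher in stem than in basal, a log2 ratio of 0.73 (0.29 to 1.20). The stem over luminal value was 0.32 (-0.03 to 0.69) and that of basal over luminal -0.41 (-1.005 to 0.17), and both intervals included 0.

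DSP (NM_001008844.1), the desmosomal plaque gene, had another order. It had 276 counts in luminal, 275 in basal and 26177 in stem, or 200.0 (177 to 225), 232 (206 to 261) and 204 (201 to 206) normalised counts. Basal was highest, and luminal and stem were nearly equal, with a log2 ratio of 0.03 (-0.14 to 0.20) for stem over luminal. For stem over basal it was -0.19 (-0.36 to -0.01), or 0.877-fold, and on other scales its sign turned, to 0.28 with 6 positive controls and 0.10 by total count. The interval also included 0 once the counting error of the scale was added (-0.47 to 0.10). The accession listed for the DSP probe is 1 of 4 curated transcripts of the gene, and which of them the probe reads was not examined. The same holds for JUP (7 transcripts), F11R (6), CDH3 (3) and CLDN7 (3).

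Read together for stem over basal, 3 of the 5 junction genes that could be compared were higher with intervals that excluded 1 (CDH3, F11R and JUP). With such an interval 1 was lower (DSP). CLDN7 had an interval that included 1, and CLDN3 and CLDN4 were not above background, so that 5 of the 7 could be compared in each of the 3 comparisons. By the same criterion 12.8% were higher and 11.7% lower among the 94 genes of the panel with a count above background in stem or basal. Of these, 74 were above background in both, and genes with few counts have wide intervals. The shares given here and for the other comparisons are therefore not matched to the counts of the junction genes. The 5 junction genes above background in both libraries had a median log2 ratio of 0.73 and a range of -0.19 to 0.80, beside a median of 0.15 over all 74 such genes. For stem over luminal, 2 of the 5 that could be compared were higher (CDH3 and F11R) and 0 lower, beside 20.2% higher and 4.26% lower among 94 genes. That background itself turned with the scale, from 19 genes higher and 4 lower to 7 and 10 by the median of ratios. The median was 0.32 over the 5 and 0.24 over 76 genes. The comparisons of stem with luminal and with basal share the stem library. For basal over luminal 0 of the 5 had an interval that excluded 1, against 12.7% higher and 3.8% lower among 79 genes, and the median was -0.29 over the 5 and 0.15 over 71 genes.

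On the housekeeping scale 0 junction genes reached 2-fold with an interval excluding 1 in any of the 3 comparisons. CDH3, F11R and JUP did reach it in stem over basal by total count, at log2 ratios of 1.08, 1.05 and 1.01, and with 6 positive controls. On these scales 8 and 11 of 94 genes of the panel passed it there, all higher. The positive control scales also put 2 to 4 junction genes past it in the comparisons over luminal, all higher. Much of the panel passed with them, also all higher. Between stem and luminal 70 of 94 genes did so on either positive control scale. Between basal and luminal it was 43 of 79 with 6 probes and 55 with 4. Passing the limit on those scales therefore sets no junction gene apart. On the housekeeping scale, by the 2-fold limit, 0% of genes were higher and 2.53% lower for basal over luminal, 2.13% in each direction for stem over luminal, and 3.19% higher and 0% lower for stem over basal. Because RNA was taken from cells in bulk, fewer cells with a transcript and less of it per cell cannot be told apart.

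**Figure D2:**
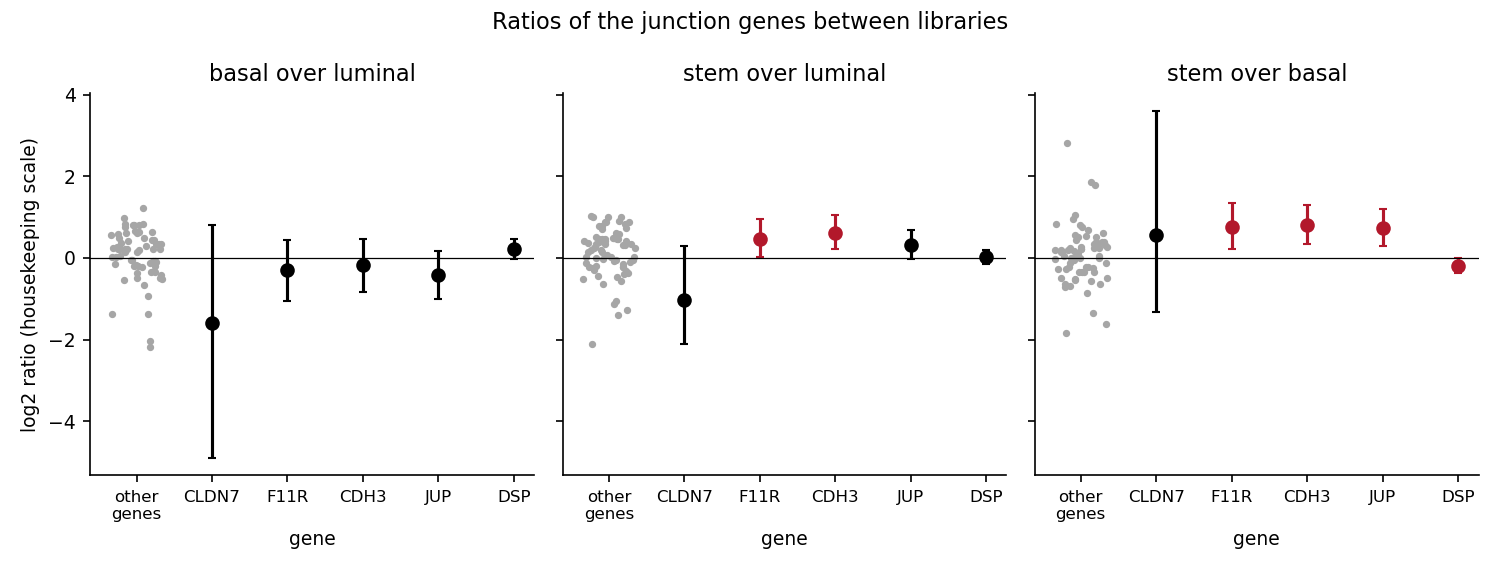
Log2 ratios on the housekeeping scale of the 5 junction genes above background in all libraries, with 95% counting intervals, red where the interval excludes 0. Grey points are the other genes above background in both libraries of a comparison. For stem over basal CDH3, F11R and JUP stood at 0.80, 0.76 and 0.73 and DSP at -0.19.

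All of these ratios rest on how the libraries are scaled to each other, and the scales disagreed. The spiked positive control RNAs gave 2795 counts in luminal, 776 in basal and 69670 in stem. With their 6 probes as the scale, all log2 ratios shift upward, by 1.19 between basal and luminal, 1.66 between stem and luminal and 0.47 between stem and basal. The ratios were therefore recomputed on 10 scales, made of the 5 housekeeping genes, these with each gene left out in turn, total count, the median of ratios, and the positive controls with 6 or 4 probes. For stem over basal, CDH3, F11R and JUP were above 0 with intervals excluding 0 on 10 of 10 scales. Their lowest values were 0.59, 0.55 and 0.52, without RPLP0 among the housekeeping genes, and their highest 1.27, 1.23 and 1.19. Without RPLP0 the lower bounds came down to 0.125, 0.019 and 0.080. On that scale the intervals of 7 of 94 genes of the panel lay above 0, CDH3, F11R and JUP among them. Those of 13 lay below 0. These intervals hold the counting error of the gene only, and most of the scales share housekeeping genes, so they are not independent. For stem over luminal, the interval lay above 0 on 8 of the 8 scales made from the sample's own RNA for CDH3, on 5 for F11R and on 2 for JUP. On each positive control scale 71 genes had intervals above 0 in that comparison, so these scales single out no gene.

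For basal over luminal the scale set the direction. CDH3, F11R and JUP had log2 ratios below 0 on these 8 scales and above 0, with intervals excluding 0, on both positive control scales. With 6 and 4 positive controls, 48 and 56 of 79 genes of the panel were higher by that criterion and 0 lower. The positive control scales thus single out no gene here either. JUP was lower in basal with an interval excluding 0 on 2 of the 8, those of total count and of housekeeping genes without SF3A1, where it came to -0.64. DSP ranged from -0.01 to 0.33 on the 8 scales, was higher in basal with an interval excluding 0 on 3 of them (without MRPL19, PSMC4 or RPLP0), and reached 1.87 with 4 positive controls.

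**Figure D3:**
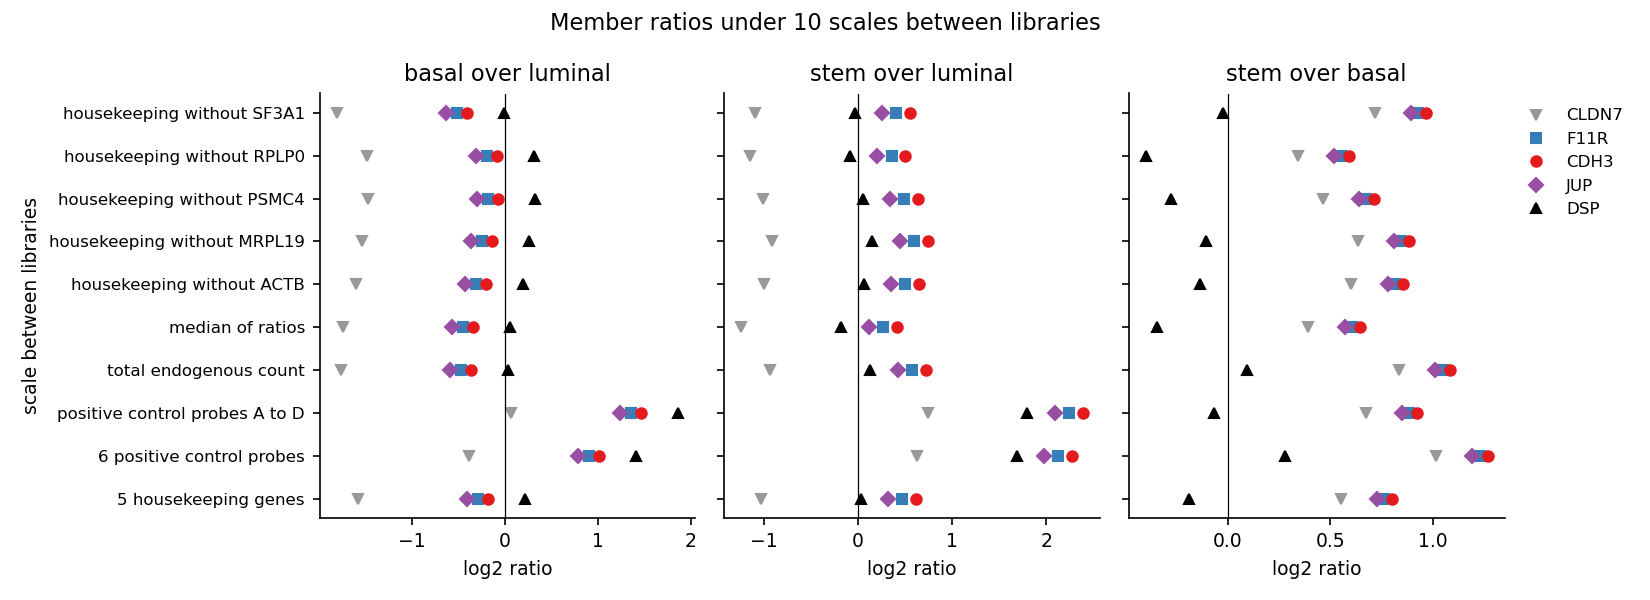
Log2 ratios of CLDN7, F11R, CDH3, JUP and DSP (x axis) under 10 scales between libraries (y axis) for the 3 comparisons. The genes keep their distances from each other on every scale while the whole set shifts, and for stem over basal CDH3, F11R and JUP lie above 0 on each scale.

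The ratio of one junction gene to another within a library needs no scale, and its change between libraries was taken for the 10 pairs of the 5 genes above background. For each pair this is an odds ratio with an exact conditional 95% interval. JUP stood at 0.153 counts per DSP count in basal, 0.236 in luminal and 0.288 in stem. From basal to stem this ratio was higher by a log2 change of 0.92 (0.44 to 1.42). CDH3 stood at 0.135 counts per DSP count in basal, 0.178 in luminal and 0.267 in stem, a log2 change of 0.99 (0.49 to 1.53) from basal to stem. F11R stood at 0.102, 0.145 and 0.197, a log2 change of 0.95 (0.39 to 1.57). All 3 genes thus stood higher relative to DSP in stem than in basal, and luminal lay between them.

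These were the 3 of 10 pairs with intervals excluding 1 for stem over basal, and the 3 also excluded 1 at 99%. They share the DSP counts and are not independent of each other. Across all 2701 pairs of genes above background in both libraries, 20.7% had such an interval. For stem over luminal, 3 of 10 pairs excluded 1, beside 19.4% of 2850 pairs. They were CDH3 over DSP at 0.59 (0.14 to 1.06), CDH3 over CLDN7 at 1.65 (0.25 to 2.82) and F11R over CLDN7 at 1.504 (0.09 to 2.69), and at 99% CDH3 over DSP alone remained. For basal over luminal 0 of 10 pairs excluded 1, beside 9.42% of 2485, and the nearest was DSP over JUP at 0.62 (-0.01 to 1.27). Among CDH3, F11R and JUP themselves, the 3 pairs changed by 0.04 to 0.07 from basal to stem, with intervals reaching from -0.73 to 0.79, so unequal change of up to that size could not be seen at these depths.

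**Figure D4:**
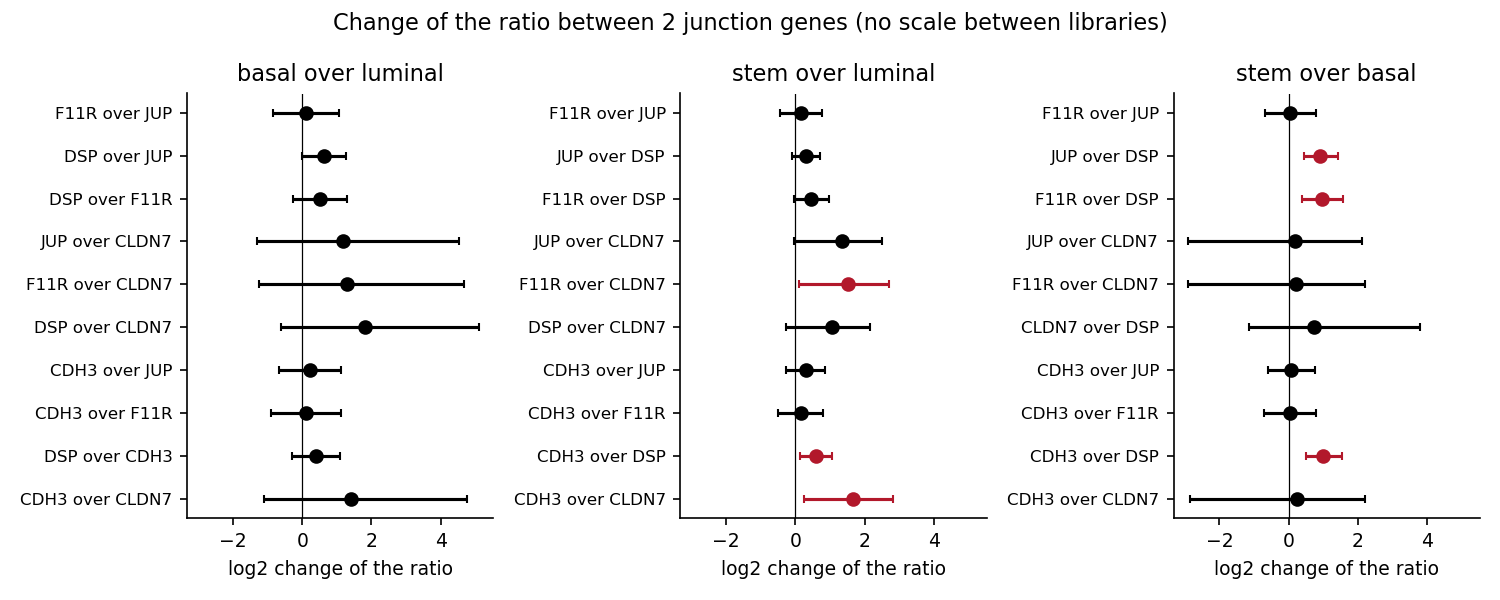
Log2 change, between 2 libraries, of the count ratio of 2 junction genes within a library, with exact conditional 95% intervals, red where 0 is excluded. Each pair is turned so that its change is above 0. In the stem over basal panel the 3 red pairs are CDH3, F11R and JUP, each over DSP, at 0.99, 0.95 and 0.92.

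The genes with the most similar pattern over the 3 libraries were found by the Euclidean distance between centred log2 counts, which no scale changes. The distances come from the same counts as the pair ratios and describe them further. Of 53 genes with at least 10 counts in every library, the nearest to CDH3 was F11R at a distance of 0.11, followed by RB1, a repressor of cell-cycle entry, at 0.16. The nearest to F11R were CDH3 and JUP, both at 0.11, and to JUP they were F11R at 0.11 and SLC16A3, a lactate transporter, at 0.20. The median distance to all other genes lay between 0.57 and 0.60 for these 3. DSP lay 0.66 to 0.70 from them. Its own nearest genes were PTTG1 (securin, a regulator of sister chromatid separation) at 0.06 and KIF2C, a mitotic kinesin, at 0.14. Such distances rest on 3 libraries and, for CDH3, F11R and JUP, on 28 to 65 counts in luminal and basal, so that small ones lie within counting error.

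Few other genes of these junctions were counted. Of 39 further junction and adhesion genes, EPCAM, an epithelial adhesion molecule, was the one on the panel. It had 6 counts in luminal, was listed at 1 in basal and had 449 in stem, and its interval included 1 in each comparison. PVRL3 (nectin-3 of adherens junctions), named after its values were seen, had 2 counts in luminal, was listed at 1 in basal and had 263 in stem, also with no interval excluding 1.

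Of a list of 15 genes, regulators of junction genes together with the mesenchymal marker VIM, 5 were on the panel. On the housekeeping scale ESRP1, an epithelial splicing factor, had 13.8, 3.38 and 23.8 normalised counts in luminal, basal and stem, the same order as CDH3, F11R and JUP. VIM, the mesenchymal filament vimentin, had 127, 171 and 109, the opposite order to theirs. The place of luminal in these orders is uncertain. Between basal and luminal the intervals of CDH3, F11R and JUP included 0. For stem over luminal those of JUP (-0.03 to 0.69) and VIM (-0.43 to 0.01) did. ESRP1 rested on 19, 4 and 3053 raw counts. For stem over basal, 4 of the 5 exceeded background in either library. With intervals excluding 1, ESRP1 was higher (2.81) and VIM lower (-0.65), beside 12.8% higher and 11.7% lower among 94 genes. For basal over luminal, of 3 such genes, ESRP1 was lower (-2.03) and VIM higher (0.44), beside 3.8% lower and 12.7% higher among 79 genes. For stem over luminal, of 4 such genes, ESRP1 was higher (0.79), beside 20.2% of 94 genes. The repressor ZEB1 had 2 counts in luminal, 2 in basal and 85 in stem, with intervals that included 1 throughout. FOXC1 had 111 counts in stem, or 0.864 normalised counts, and stood at the listed minimum of 1 in the other libraries. Its upper limits there were 4.04 normalised counts in luminal and 4.71 in basal, so no difference could be seen. GRHL2, an activator of epithelial junction genes, was not above background in any library. The part of these genes in the junction gene levels was not tested.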

How the data were processed

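RNA of 3 MCF10A libraries was counted with the NanoString nCounter. The raw counts per probe were deposited without normalization, per the file headers, and were the values analysed. The log2 values that the authors deposited for 105 genes were, for 105 of 105, the log2 count minus the mean log2 count of ACTB, MRPL19, PSMC4, RPLP0 and SF3A1 (largest departure 3.53e-09). They were not used further. Counting settings and a genome build are not given in the sources used here.

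Counts were scaled by the same 5 genes. A ratio between libraries had a 95% Clopper-Pearson interval conditional on the sum of the counts. Where a gene was listed at 1, the interval allowed for 0. Genes counted as tested exceeded background in 1 or both libraries compared. All 105 other genes were fitted alike, and the functions were tested on simulated data. Python 3.11.15, numpy 2.4.6 and scipy 1.17.1 were used. Named were the 7 junction genes, for each with at least 10 counts in every library its 2 nearest genes by pattern, and the members of 2 fixed lists on the panel. The members and lists were chosen with earlier results of these data known. Probe accessions were matched to RefSeq symbols of GRCh38.p14 for 109 of 110 genes. Alternatives tried were 9 other scales, background subtraction, an interval with the scale's error, and other limits of fold, confidence and background.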

Additional observations from a re-analysis of the deposited data

How the results depend on the processing

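Each subpopulation had 1 library, so no replicate could be left out. For the same reason no paired analysis was possible. What limits every result is the count in luminal and basal and the scale between libraries, which has a 95% half-width from counting (log2) of 0.29 between basal and luminal, 0.19 between stem and luminal, and 0.23 between stem and basal. Counts of genes past 2-fold were 2, 4 and 3 in that order. With 6 positive controls they became 43, 70 and 11, and with probes A to D 55, 70 and 5. For stem over luminal the count was 2 without RPLP0, without SF3A1 or by the median of ratios, and 7 without MRPL19. For stem over basal it was 8 by total count (3 of them CDH3, F11R and JUP), 5 without MRPL19 or SF3A1 and 1 without PSMC4. At 1.5-fold the counts were 9, 13 and 13, with CDH3 among those of stem over luminal and CDH3, F11R and JUP among those of stem over basal, and at 3-fold that of stem over luminal was 0.

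Genes with intervals excluding 1 numbered 13, 23 and 23. Their split into higher and lower also moved, from 10 and 3 to 3 and 6 without SF3A1 for basal over luminal, from 19 and 4 to 7 and 10 by the median of ratios for stem over luminal, and from 12 and 11 to 22 and 5 by total count or 7 and 13 by the median of ratios for stem over basal. With 6 positive controls they numbered 48, 71 and 38, with probes A to D 56 and 71 for the comparisons over luminal, and without PSMC4 20 for basal over luminal. Junction genes with such intervals numbered 0, 2 and 4. On both positive control scales they numbered 4 for basal over luminal and 4 for stem over luminal. For basal over luminal the number was 1 by total count and without SF3A1 (JUP, lower), and 1 without MRPL19, PSMC4 or RPLP0 (DSP, higher). For stem over luminal it was 1 without RPLP0 or SF3A1 and 1 when the error of the scale was added, CDH3 in each case. By the median of ratios it stayed 2, with CDH3 higher and DSP lower at -0.18, while F11R no longer excluded 1. For stem over basal CDH3, F11R and JUP kept intervals above 0 on each of the 10 scales. They also did so with the error of the scale added, which was done on the scale of all 5 housekeeping genes alone. DSP turned from -0.19 to 0.28 with 6 positive controls and to 0.10 by total count. The cause of these shifts was not tested.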
